A study of Homo sapiens with 23 samples.

Results

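The respiratory chain genes were followed in squamous carcinoma xenografts that carried intact or knocked-out human Flower (hFWE, gene symbol CACFD1). Protein-coding genes were taken by symbol (NDUFA, NDUFB, NDUFC, NDUFS and NDUFV genes, SDHA to SDHD, UQCR genes, COX4 to COX8 genes, ATP5 genes and the genes named MT-). This matched 98 genes, of which 96 had a mean deposited value of at least 10, among 16063 such genes and 27589 genes in all. Of the 96 members, 83 are encoded in the nucleus and 13 in the mitochondrial genome. The 2 that were left out, COX7A1 and ATP5MGL, had means of 0.69 and 0.85. RNA was measured by poly(A) selected, directional sequencing of tumours that SCC-13 cells, an established line of human cutaneous squamous cell carcinoma, had formed under the skin of NCG mice, a strain without functional lymphocytes, by day 26. All tumours share this cell line, host strain and harvest day. There were 12 tumours labelled hFWE WT (lines 5B2, 6C9 and 6C10, with 4 each). Another 11 were labelled hFWE KO, 3 of line 2F7 and 4 each of 2B8 and 1G10. The labels do not say how the lines were derived, nor whether tumours came from separate mice, and a p-value here measures only how these tumours spread, which may be partly technical. Every line has 1 genotype, and a genotype difference therefore rests on 3 lines a side.

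The respiratory chain is a series of protein complexes in the inner mitochondrial membrane. Complex I takes electrons from NADH and complex II from succinate, complex III passes them from ubiquinol to cytochrome c, and complex IV hands them to oxygen, while complex V uses the resulting proton gradient to make ATP. The mitochondrial genome encodes core subunits of complexes I, III, IV and V and is transcribed from both strands as long precursors that are cut into single messages, whereas complex II and all other subunits are nuclear and their proteins are imported. In the stratified epidermis from which these tumours derive, mitochondria are lost as cells cornify.

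Sequences of both genomes are shown first, because promoter motifs recur among the nuclear members and coding sequences overlap among the mitochondrial ones. In the nucleus, many respiratory chain promoters hold sites for the factors NRF1, GABPA (an ETS factor) and YY1. The cores GCGCATGC for NRF1, CCGGAAGT for GABPA and AAGATGGC for YY1 were searched on both strands in RefSeq windows on GRCh38.p14, from 250 bases before to 50 bases after the start of transcription. A window was at hand for 69 of the 83 nuclear members. The NRF1 core was in 13 of them (18.8%), against 5.38% of the windows of all protein-coding genes tested and 3.27% of all windows. The YY1 core was in 11 (15.9%, against 5.38% and 3.03%) and the GABPA core in 10 (14.5%, against 8.82% and 4.44%). At least 1 of the 3 cores was in 28 (40.6%, against 17.9% and 9.94%). The 3 windows below show these arrangements in genes whose values are given further on, with each match in capitals. That of SDHD (chr11:112086623-112086922, plus strand) holds the NRF1 core on both strands, overlapping, from 110 bases upstream of the start, and the GABPA core on the reverse strand from 78 bases upstream. That of COX6A1 (chr12:120437863-120438162, plus strand) holds the NRF1 core at 2 separate places, 218 and 174 bases upstream. That of UQCRC1 (chr3:48609597-48609896, minus strand) holds the YY1 core from 23 bases downstream of the start. A match is a run of letters and no measurement of binding.
SDHD: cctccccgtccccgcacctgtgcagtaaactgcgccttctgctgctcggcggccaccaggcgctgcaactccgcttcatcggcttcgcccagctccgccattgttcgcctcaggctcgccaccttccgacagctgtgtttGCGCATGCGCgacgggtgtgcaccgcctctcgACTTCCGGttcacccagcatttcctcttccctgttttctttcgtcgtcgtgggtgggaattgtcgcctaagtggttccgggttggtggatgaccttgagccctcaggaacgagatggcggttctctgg
COX6A1: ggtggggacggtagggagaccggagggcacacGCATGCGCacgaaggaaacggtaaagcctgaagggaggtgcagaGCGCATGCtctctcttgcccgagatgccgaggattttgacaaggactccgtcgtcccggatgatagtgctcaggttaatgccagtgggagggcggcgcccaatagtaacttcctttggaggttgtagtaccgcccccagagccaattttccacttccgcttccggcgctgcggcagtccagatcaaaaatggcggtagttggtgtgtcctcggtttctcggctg
UQCRC1: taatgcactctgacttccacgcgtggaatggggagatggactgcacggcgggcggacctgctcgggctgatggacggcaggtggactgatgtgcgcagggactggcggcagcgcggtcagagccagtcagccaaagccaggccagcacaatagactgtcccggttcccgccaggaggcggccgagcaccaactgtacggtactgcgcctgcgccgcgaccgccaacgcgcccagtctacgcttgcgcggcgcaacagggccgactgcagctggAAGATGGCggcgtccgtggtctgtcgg
In the mitochondrial genome, coding sequences overlap. The 3' end of MT-ATP8 and the 5' end of MT-ATP6 share 46 bases (chrM:8527-8572, plus strand), printed with the MT-ATP6 start codon in capitals, and reads inside them belong to both genes.
MT-ATP8 and MT-ATP6: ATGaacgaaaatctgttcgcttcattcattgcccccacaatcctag
MT-ND4L and MT-ND4 overlap in the same way, by 7 bases.

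Sequence outside the members also bears on the values. Of the 83 nuclear members, 35 had no 50-base window in common with another annotated gene and 15 shared at least 20% of their windows. Among them, COX6A1 shared 44.0%, mostly with the pseudogene COX6A1P2, SDHA shared 22.3% with its SDHAP copies, and the readthrough genes ATP5MF-PTCD1 and NDUFC2-KCTD14 shared 98.1% and 92.6% with their parent genes. Values of these genes are uncertain, since reads can be split between copies. Of the 13 mitochondrial genes, 6 shared at least 20% of their windows with nuclear copies of mitochondrial DNA, the most in MT-CO1 (49.5%), MT-ATP6 (46.7%) and MT-ND2 (43.6%). The largest of these copies in signal, MTATP6P1, had a mean value of 2954, against 26333 for MT-ATP6.

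The estimated number of assigned reads was 13082214 to 22093213 in 21 libraries, 7011069 in WT specimen 5532 and 2037751 in WT specimen 5533, both of line 6C9. These 2 shallow libraries also stood apart in the members' values, and differences are given with and without them. The targeted gene was still detected in the tumours labelled KO, at 167 to 370 (median 277) against 286 to 432 (median 370) in the WT tumours. The ranges overlap, and the labels do not say which part of the gene was altered. The labelled cell type was checked against 12 keratinocyte markers, which were all tested and summed to at least 1031107 in every tumour. In bulk RNA, fewer cells of a type and less RNA per cell cannot be told apart.

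The 13 mitochondrial genes together made up 1.62% ± 0.519 (SD, n = 21) of the deposited signal, and the 83 nuclear members 0.570% ± 0.0620 (SD, n = 21), in the tumours other than specimens 5532 and 5533. Per kilobase of transcript over the same 21 tumours, the highest mitochondrial level was that of MT-CO1, the catalytic subunit of complex IV, at 38418. MT-CO3, MT-ATP6 and MT-CO2 followed at 34026, 32569 and 30530 per kilobase. The lowest per-kilobase levels were those of the complex I genes MT-ND4L (5805) and MT-ND5 (7378). MT-ND4L has 297 bases and shares a message with MT-ND4, which stood at 19352 per kilobase. MT-ATP8 (207 bases, 17355 per kilobase) likewise shares one with MT-ATP6. Per-kilobase values of such short genes may therefore not rank the RNA. MT-ND6, the only gene of the 13 that is encoded on the light strand, stood at 14248 per kilobase. The sources used here do not say whether reads were counted by strand, so part of the MT-ND6 value could be heavy-strand precursor.

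**Figure D1:**
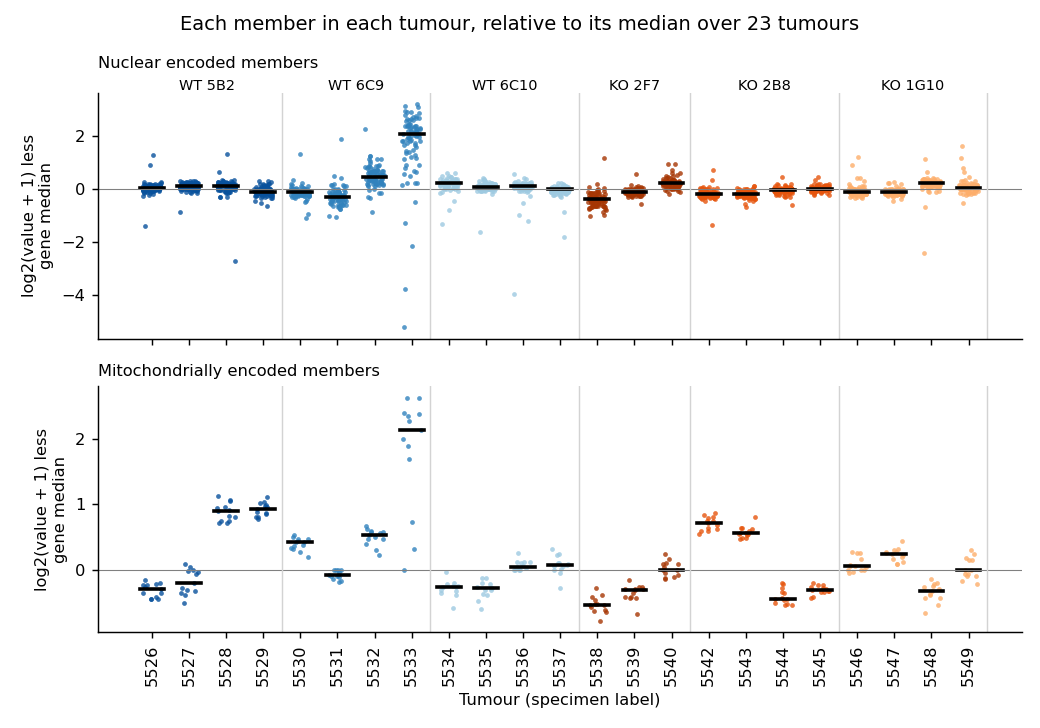
Each member in each of the 23 tumours, as log2(value + 1) less the gene's median over the tumours. Points are genes, black bars the medians of the members, colours the 6 lines. Specimen 5533 is above the gene's median for 78 of 83 nuclear and 12 of 13 mitochondrial members, and the mitochondrial members of 1 tumour lie closer together in the other tumours than in specimen 5533.

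No respiratory chain gene passed the test between KO and WT tumours. With limma across all 16063 genes, 1 gene was called at an adjusted p of 0.05 (0.00623% of the genes tested), and it was not a member. The lowest adjusted p was 0.347 among nuclear members (NDUFS7) and 0.400 among mitochondrial members (MT-ND2). At an unadjusted p of 0.05, 7 nuclear and 0 mitochondrial members differed, against 12.5% of all genes. Of these, 5 were lower in KO tumours (NDUFS7, NDUFV1, SDHB, SDHD, COX6A1), as were 6.63% of all genes, and SDHA and ATP5MF-PTCD1 were higher, as were 5.9%.

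The differences were small and mostly of 1 sign. The median log2 difference of KO against WT was -0.28 for the nuclear members and -0.37 for the mitochondrial members, against 0.03 for all genes tested. It was below 0 for 78 of 83 nuclear and 13 of 13 mitochondrial members, where 45.8% of all genes were below 0. These values rested largely on the 2 shallow WT libraries. Without specimens 5532 and 5533 the medians were -0.07 and -0.16, against -0.0003 for all genes, and 65 nuclear and 13 mitochondrial members were below 0 (50% of all genes). Specimen 5533 alone accounted for most of the shift, since without it the medians were -0.12 and -0.18. With the libraries weighted by their quality, the medians were -0.16 and 0.02, so that the mitochondrial median changed sign, and 0 members were called (4.59% of all genes were). Without the 2 libraries 0 of 15924 genes were called, and at an unadjusted p of 0.05 2 nuclear members, NDUFS7 and NDUFV1, differed (10.5% of all genes did). In all tumours the difference was lower for shorter transcripts, among 83 nuclear members (r = 0.325, rho = 0.469) and 12833 genes (r = 0.376, rho = 0.444). Without the 2 libraries it was r = 0.187 and rho = 0.210 for the nuclear members. The shares of all genes are not matched for length, and the part of length was not tested.

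The 21 deeper libraries also gave narrower intervals for the nuclear members. The median standard error of a nuclear member's log2 difference was 0.10 without the 2 shallow libraries and 0.20 with them. Without them, the 95% confidence interval lay within 0.5 of 0 on the log2 scale for 79 of the 83 nuclear members, and with them for 20. For the mitochondrial members, whose median standard error was 0.20, it did so for 2 of 13, so that a difference of that size was not excluded for the others. All these intervals use 1 line correlation shared by all genes, 0.075 without the 2 libraries and 0.0077 with them. They treat tumours of a line as nearly independent, and may be too narrow for a gene that differs among lines.

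**Figure D2:**
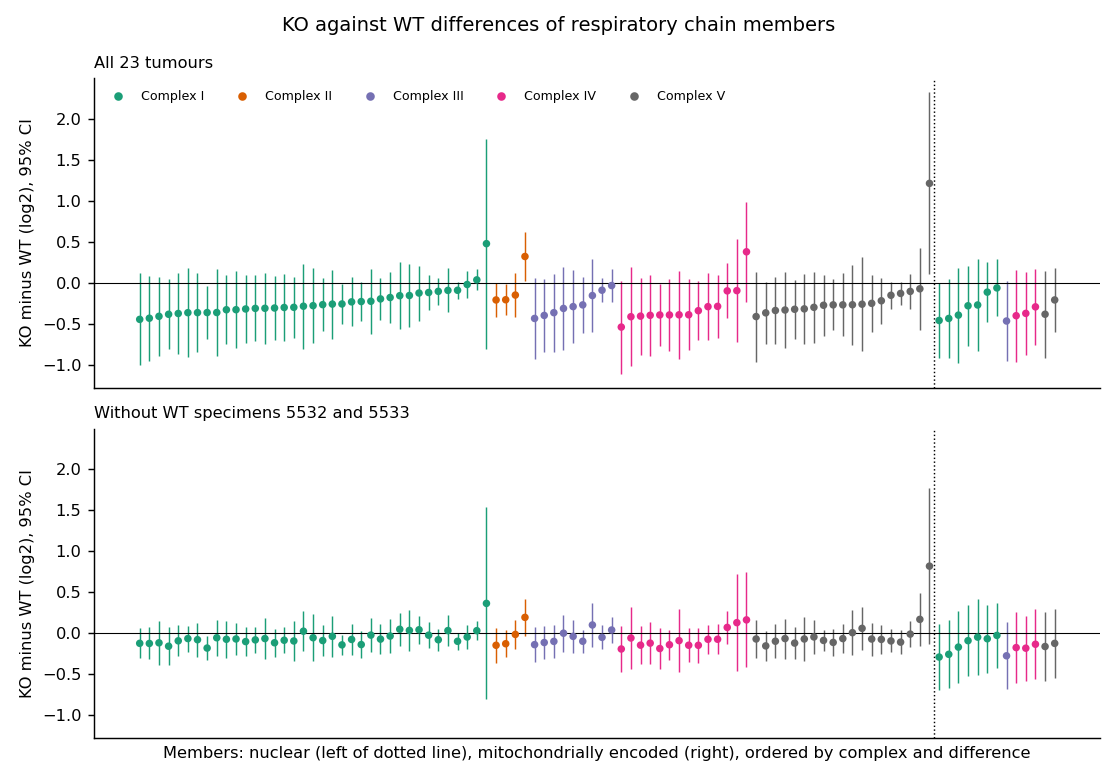
KO minus WT log2 difference of each member with its 95% confidence interval from limma, for all 23 tumours (top) and without WT specimens 5532 and 5533 (bottom). Members are ordered by complex (colours) and difference, with mitochondrially encoded genes right of the dotted line. Intervals are narrower and centred nearer 0 in the lower panel for the nuclear members, and those of the mitochondrial members stay wide.

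Complex I, the NADH dehydrogenase, has 37 nuclear members, and their median difference was -0.28 in all tumours and -0.07 without the 2 shallow libraries. NDUFS7 carries an iron-sulfur cluster near the ubiquinone site and had the strongest statistic of the complex. Its values were 460 to 1868 in WT (median 595) and 448 to 569 in KO tumours (median 502). The groups overlap, and the highest WT value is that of specimen 5533. The log2 difference was -0.36 ± 0.16 (SE, limma adjusted p = 0.347), and -0.18 ± 0.07 without the 2 libraries (adjusted p = 0.394). NDUFV1, the subunit that binds NADH, named after its values were seen, was 1040 to 2942 in WT (median 1248) and 959 to 1172 in KO tumours (median 1094). Without the 2 libraries the highest WT value was 1397 and the difference -0.14 ± 0.06 (limma adjusted p = 0.430). NDUFB9, an accessory subunit of the membrane arm, had the highest mean of the nuclear complex I genes, with 1363 to 8888 in WT (median 2229) and 1258 to 2492 in KO tumours (median 1976). Its groups overlap over almost the whole KO range, and its difference was -0.04 ± 0.12 without the 2 libraries. The readthrough gene NDUFC2-KCTD14 had the most positive statistic but low and scattered values, 0.096 to 80.7 in WT (median 17.3) and 5.59 to 51.6 in KO tumours (median 15.7), with an interval from -0.81 to 1.76.

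Complex II, succinate dehydrogenase, has no mitochondrial gene, and its 4 members went in both directions. SDHA, the flavoprotein that oxidises succinate, was 411 to 1335 in WT (median 960) and 973 to 1723 in KO tumours (median 1064). The lowest WT value was that of specimen 5533, the opposite of most members, and the highest KO value was that of specimen 5549 of line 1G10. The log2 difference was 0.32 ± 0.14 (limma adjusted p = 0.367), and 0.20 ± 0.11 without the 2 libraries. SDHB, the iron-sulfur subunit, was 371 to 658 in WT (median 442) and 308 to 458 in KO tumours (median 396), a difference of -0.21 ± 0.09 (limma adjusted p = 0.351). SDHD, a membrane anchor that the rule for named genes does not take, was 539 to 949 in WT (median 785) and 523 to 789 in KO tumours (median 670), a difference of -0.21 ± 0.10 (limma adjusted p = 0.397). Without the 2 libraries the differences of SDHB and SDHD were -0.13 ± 0.08 and -0.15 ± 0.10. SDHC, the other anchor and the member with the highest mean of the complex, was 845 to 2468 in WT and 747 to 1333 in KO tumours, and its difference was -0.01 ± 0.08 without them.

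The 9 nuclear members of complex III had a median difference of -0.29, and of -0.05 without the 2 shallow libraries. UQCRB, which helps to bind ubiquinone and has the highest mean, was 1495 to 13291 in WT (median 2302) and 1582 to 2603 in KO tumours (median 1994). The highest WT value, again of specimen 5533, stood far above the next, 3008 in specimen 5532. UQCR11, a small accessory subunit, was 695 to 4358 in WT (median 965) and 665 to 1092 in KO tumours (median 786), a difference of -0.40 ± 0.22 (limma adjusted p = 0.448) that was -0.11 ± 0.10 without the 2 libraries. UQCRC1, a core subunit, stood in the same range in both groups, 1835 to 3837 in WT (median 2216) and 1776 to 2777 in KO tumours (median 2308), with a difference of -0.03 ± 0.10. Its interval without the 2 libraries ran from -0.11 to 0.20.

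Complex IV, cytochrome c oxidase, had the most negative nuclear median, -0.39 for 14 members, and -0.10 without the 2 libraries. COX4I1, a regulatory subunit that binds ATP, was 1998 to 12049 in WT (median 2634) and 1895 to 3114 in KO tumours (median 2352). COX6A1, whose promoter is printed above, was 1218 to 5847 in WT (median 1836) and 1036 to 2071 in KO tumours (median 1425). All WT tumours but 5532, 5533 and 5534 lay inside the KO range, so the groups overlap, and the difference was -0.39 ± 0.18 (limma adjusted p = 0.388) and -0.18 ± 0.12 without the 2 libraries. COX7A2, named after its values were seen, had the most negative difference of any nuclear member, -0.54 ± 0.28 (limma adjusted p = 0.418), and -0.19 ± 0.14 without them. COX6B2, best known from testis, was 9.14 to 110 in WT (median 40.6) and 27.6 to 73.7 in KO tumours (median 48.0), and its 9.14 in specimen 5533 amounts to 1 read.

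Complex V, the ATP synthase, has 19 nuclear members with a median difference of -0.27, and of -0.07 without the 2 libraries. ATP5F1B, the catalytic beta subunit, had the highest mean of all nuclear members, and unlike most of them was hardly raised in specimen 5533. It was 5076 to 6495 in WT (median 5985) and 4574 to 6054 in KO tumours (median 5429). The difference was -0.13 ± 0.07 in all tumours (limma adjusted p = 0.433) and -0.11 ± 0.07 without the 2 libraries. ATP5IF1, the inhibitor of the enzyme's reverse reaction, was 1633 to 8487 in WT (median 2157) and 1420 to 2362 in KO tumours (median 1812), with differences of -0.37 ± 0.19 and -0.15 ± 0.09. The readthrough gene ATP5MF-PTCD1 had the largest positive difference, 1.21 ± 0.54 (limma adjusted p = 0.357), and 0.82 ± 0.46 without the 2 libraries. Its values ran from 1.49e-28 in specimen 5533 to 50.9 in WT tumours (median 21.1) and from 5.96 to 81.6 in KO tumours (median 41.4), and nearly all of its sequence is shared with other genes.

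The 13 mitochondrial genes all had lower KO than WT means, with differences from -0.47 (MT-CYB) to -0.06 (MT-ND4L), and none passed the test. MT-CYB, the only complex III gene of the mitochondrial genome, was 10080 to 57067 in WT (median 13989) and 8587 to 19512 in KO tumours (median 10138). Its difference was -0.47 ± 0.24 (limma adjusted p = 0.417), and -0.27 ± 0.20 without the 2 shallow libraries. MT-CO1 was 42560 to 185593 in WT (median 59214) and 37201 to 91728 in KO tumours (median 53433), a difference of -0.29 ± 0.23 and of -0.13 ± 0.21 without them. MT-ND2, a complex I gene, was 7116 to 34784 in WT (median 9278) and 5857 to 13045 in KO tumours (median 8238), a difference of -0.46 ± 0.22 and of -0.29 ± 0.20 without them. The ranges overlap for all 3 genes, but several KO tumours lay below the lowest WT value. These were specimens 5538, 5539, 5544, 5545 and 5548 for MT-CYB (8587 to 10049), and 5538, 5544, 5545 and 5548 for MT-ND2 (5857 to 6932). For MT-CO1 they were 5538, 5544 and 5545 (37201 to 42529). WT specimens 5528, 5529 and 5533 lay above the highest KO value for all 3 genes. No KO tumour lay below the lowest WT value for MT-ND4, MT-ND4L or MT-ND5. Their lowest KO values were 18543, 1253.5 and 9250, and their lowest WT values 18514, 1103.4 and 8940. For every other mitochondrial gene the lowest KO value was below the lowest WT value. Among the complex I genes other than MT-ND2 and MT-ND4L, the differences without the 2 libraries were -0.26 for MT-ND1, -0.17 for MT-ND3, -0.09 for MT-ND4, -0.07 for MT-ND5 and -0.05 for MT-ND6. For MT-CO2, MT-CO3, MT-ATP6 and MT-ATP8 they were -0.17, -0.18, -0.16 and -0.12. Apart from that of MT-ND1, each of these is smaller than 1 standard error, and the standard errors were 0.19 to 0.23.

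The main spread of the mitochondrial genes lay between tumours of the same line. In line 5B2 their share of the signal was 1.11% and 1.33% in specimens 5526 and 5527 and 2.78% and 2.77% in specimens 5528 and 5529. In KO line 2B8 it was 2.39% and 2.20% in specimens 5542 and 5543 and 1.15% and 1.30% in specimens 5544 and 5545. All 13 genes were above their median over the tumours in specimens 5528, 5529, 5542 and 5543, and 0 to 2 of them were in the other 4 tumours of these 2 lines. In the remaining lines the share was 1.27% to 1.62% in 6C10, 1.11% to 1.504% in 2F7 and 1.13% to 1.72% in 1G10, and in 6C9 it was 1.4%, 2.00%, 2.07% and 4.54%. From the highest to the lowest line it averaged 2.50% ± 1.39 (SD, n = 4) in 6C9, 2.00% ± 0.903 (n = 4) in 5B2, 1.76% ± 0.629 (n = 4) in 2B8, 1.51% ± 0.259 (n = 4) in 1G10, 1.44% ± 0.186 (n = 4) in 6C10 and 1.27% ± 0.207 (n = 3) in 2F7. Neighbouring lines in this order differ by less than their spread. The place of 6C9 rests on the 2 shallow libraries, since its other 2 tumours averaged 1.70%, below 5B2 and 2B8. The median within-line SD over 21 tumours was 0.45 on the log2 scale for the mitochondrial members, 0.19 for the nuclear members and 0.25 for all genes. Over the 21 tumours the mitochondrial score, the mean log2 value of the 13 genes, had r = 0.098 with the log2 of the estimated reads, and the part of depth in the spread within lines was not tested.

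The nuclear members varied less and in other tumours. Their score, the mean log2 value of the 83 genes, ran from 9.02 in specimen 5538 to 9.64 in specimen 5540 over the 21 tumours, and both of these are KO tumours of line 2F7. Specimen 5538 had the lowest value of the 21 tumours for 43 of the 83 genes, and WT specimen 5531 for 17. Specimen 5540 had the highest value for 22 and WT specimen 5534 for 20. The score was 9.45 ± 0.085 (SD, n = 4) in 5B2, 9.46 ± 0.098 (n = 4) in 6C10, 9.43 ± 0.132 (n = 4) in 1G10, 9.32 ± 0.310 (n = 3) in 2F7 and 9.31 ± 0.102 (n = 4) in 2B8. In 6C9 it was 9.14 and 9.29 in the 2 deeper libraries, 9.90 in specimen 5532 and 11.08 in specimen 5533.

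No member differed among the lines of a genotype at an adjusted p of 0.05. Among the WT lines, limma's F test called 1 of 16063 genes (0.00623%), with 2 nuclear members and 1 mitochondrial member at an unadjusted p of 0.05, against 10.3% of all genes. Among the KO lines it called 0 genes (0.0%), and 0 members had an unadjusted p of 0.05, against 2.22% of all genes. Without specimens 5532 and 5533, 27 of 83 nuclear members and 1 mitochondrial member differed among the WT lines at an unadjusted p of 0.05, against 15.5% of all genes, and 1 gene was called (0.00628%), which was not a member. The smallest adjusted p of a member among the WT lines in that fit was 0.175, for COX7B, a small subunit of complex IV, named after its values were seen. With 2 tumours left in line 6C9, this comparison rests on the assumption that they vary like the others. The 27 genes were 10 of complex I, 2 of complex II, 4 of complex III, 5 of complex IV and 6 of complex V. Among the KO lines the fit without the 2 libraries called 0 genes, and 2 nuclear members had an unadjusted p of 0.05 (7.55% of all genes). With the libraries weighted by quality, 6 nuclear members were called among the WT lines (11.9% of all genes) and 14 nuclear and 8 mitochondrial members among the KO lines (40.2% of all genes). Those weights put 67.2 on specimen 5539 and 0.0015 on specimen 5533, so they rest on few tumours.

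Each KO line was also set against the mean of the WT lines, and the 3 comparisons share the WT tumours. None called a gene (0.0% each). At an unadjusted p of 0.05, 1 nuclear and 1 mitochondrial member differed in 2F7 (2.48% of all genes), 3 nuclear members in 2B8 (8.19%) and 1 in 1G10 (9.66%). With the quality weights, 39 nuclear and 13 mitochondrial members were called in 2F7 (49.2% of all genes), 1 nuclear member in 2B8 (6.51%) and 0 in 1G10 (2.03%). The nuclear median was -0.31 for 2F7, -0.32 for 2B8 and -0.21 for 1G10, and without the 2 shallow libraries -0.07, -0.08 and 0.02. The mitochondrial median was -0.57, -0.16 and -0.31, and without them -0.41, 0.01 and -0.10. Thus without the 2 libraries the sign of the nuclear median in 1G10 and that of the mitochondrial median in 2B8 changed. The means of all 3 KO lines lay below those of all 3 WT lines for 42 nuclear and 0 mitochondrial members (8.87% of all genes), but for only 1 nuclear member without the 2 libraries (5.53% of all genes). The reverse order held for 3 nuclear members, COX6B2, ATP5MF-PTCD1 and SDHA (9.77% of all genes), and for 1 without the 2 libraries (5.82%).

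Transcripts of the 2 genomes did not move together across tumours. Over all 23 tumours the nuclear and mitochondrial scores had a Pearson r of 0.586 but a Spearman rho of 0.031. Without specimens 5532 and 5533, which are also the 2 farthest from the nuclear median, r was -0.133 and rho -0.200 (n = 21). Within genotype r was -0.246 (rho = -0.430) in the 10 remaining WT tumours and -0.109 (rho = -0.182) in the 11 KO tumours. The positive r over all tumours therefore rests on specimens 5532 and 5533. When the 2 of these 21 tumours farthest from their nuclear median were also left out, r was -0.392 and rho -0.412 (n = 19). Over the 21 tumours, pairs of mitochondrial genes had a median r of 0.944, and the lowest of any pair was 0.789. Pairs of nuclear members had a median r of 0.665 and pairs of 1 gene from each genome -0.095. These are descriptions over tumours that share lines and scaling, and carry no test.

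**Figure D3:**
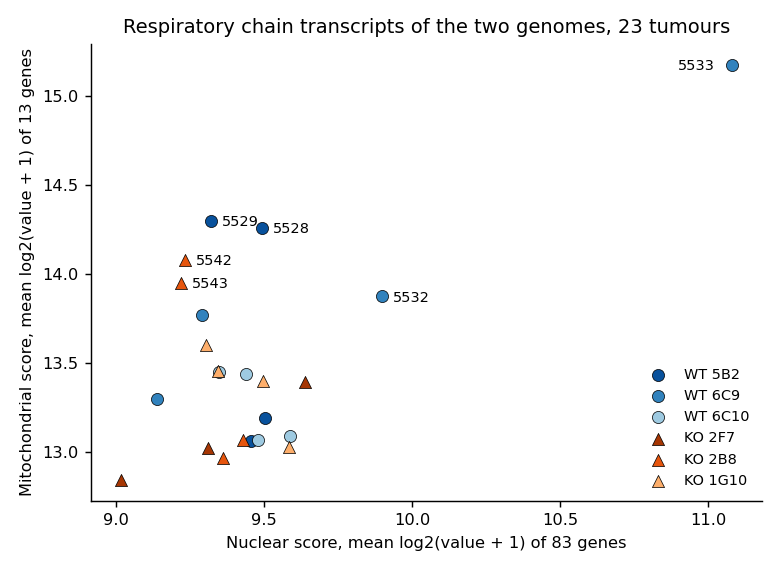
Nuclear score against mitochondrial score, each the mean log2(value + 1) of its members, for the 23 tumours (blue circles WT lines, orange triangles KO lines). Specimen 5533 stands alone at upper right. Without specimens 5532 and 5533 the 2 scores have a Pearson r of -0.133 (n = 21).

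The members closest to the common nuclear pattern over the 21 tumours were NDUFS5 of complex I (r = 0.968 with the nuclear score, which contains it), ATP5MG (0.965) and ATP5PO (0.960) of complex V and COX4I1 (0.954), the first 3 named after their values were seen. The members farthest from it included COX6B2 (-0.467), ATP5MF-PTCD1 (-0.301), SDHA (-0.190) and NDUFV1 (-0.103). By complex, the median r with the nuclear score was 0.834 for I, 0.791 for II, 0.856 for III, 0.888 for IV and 0.892 for V. The nuclear score also followed that of the 80 cytosolic ribosomal protein genes tested (r = 0.892), and the mitochondrial score did not (r = 0.114). The mitochondrial score followed the summed signal of the nuclear mitochondrial pseudogenes (r = 0.994), which share sequence with it.

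Specimen 5533 shows the members in a library with few reads. Relative to the mean of the 21 deeper tumours, its median log2 excess was 2.11 for the nuclear members, 2.04 for the mitochondrial members and -0.22 for all genes tested. It held the highest value of the 23 tumours for 77 nuclear and 10 mitochondrial members. The excess was uneven. Among mitochondrial genes it was 2.70 for MT-ND3, 2.58 for MT-CO2, 2.36 for MT-ATP6 and 1.89 for MT-ND4, but 0.70 for MT-ATP8, 0.24 for MT-ND5 and -0.07 for MT-ND4L. MT-ATP8 and MT-ND4L are the upstream reading frames of the messages that also carry MT-ATP6 and MT-ND4, with which they share the overlaps described above. In specimen 5533 the values were 5554 for MT-ATP8 and 108186 for MT-ATP6, where WT specimen 5528, the highest of the deeper libraries for MT-ATP8, had 6321 and 38529. Among nuclear members the excess was lower for longer transcripts (r = -0.332, rho = -0.445 over 83 genes), as it was over 12833 genes (r = -0.393, rho = -0.472), where genes are not independent replicates. Specimen 5532 had a median log2 excess of 0.52 for the nuclear and 0.48 for the mitochondrial members, with none of the 3 low genes set apart. The part of depth and of RNA quality in these values was not tested.

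**Figure D4:**
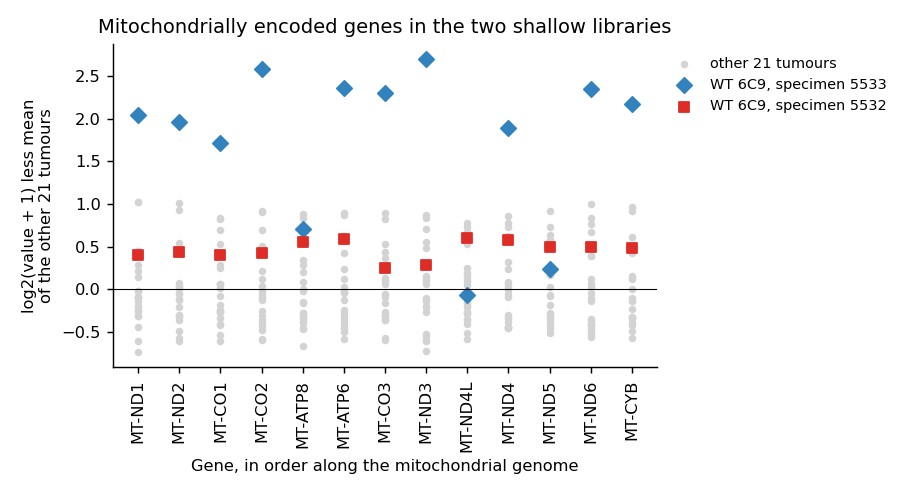
The 13 mitochondrial genes in order along the mitochondrial genome, as log2(value + 1) less the mean of the 21 deeper tumours, for WT specimen 5533 (blue diamonds), WT specimen 5532 (red squares) and those 21 tumours (grey). In specimen 5533 MT-ATP8, MT-ND4L and MT-ND5 stay within the grey range and the other 10 genes lie above it.

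Paralogue ratios were taken within a library, as differences of log2(value + 1), so that scaling enters only through the pseudocount, which weighs most on low genes such as COX6B2. Of 10 ratios set up, 5 could be formed: COX4I2, COX6A2, COX7B2 and COX8C, the muscle, lung or germ-cell forms of complex IV subunits, are not in the table used here, and COX7A1 was below the minimum. A two-sided permutation test with 100000 resamples moved single tumours between genotypes and did not account for line. By it, none of the 5 ratios passed an adjusted p of 0.05 between genotypes. COX6B2 over COX6B1 had a mean log2 ratio of -4.93 ± 1.53 (SD, n = 12) in WT and -4.16 ± 0.506 (n = 11) in KO tumours, a difference of 0.77 with a permutation p of 0.111 (adjusted over the 5 ratios, 0.348). Without the 2 shallow libraries the difference was 0.34. NDUFA4L2 over NDUFA4, a pair in which NDUFA4L2 is known as the hypoxia-induced form, had -3.16 ± 0.983 in WT and -2.87 ± 0.411 in KO tumours (permutation p = 0.370, adjusted 0.617). Its WT range, -4.88 to -1.62, enclosed the KO range of -3.44 to -2.23. ATP5MC1 over ATP5MC3, 2 genes that encode the same mature c subunit, had -1.19 ± 0.190 in WT and -1.29 ± 0.124 in KO tumours (permutation p = 0.139, adjusted 0.348). ATP5MC2 over ATP5MC3 differed by -0.05 (permutation p = 0.619, adjusted 0.671). MT-ND6 over MT-ND5, a light-strand over a heavy-strand message, was -0.69 ± 0.621 in WT and -0.85 ± 0.144 in KO tumours (permutation p = 0.671, adjusted 0.671). The WT maximum of 1.25 was that of specimen 5533, and without the 2 shallow libraries the WT mean was -0.87 ± 0.115 (n = 10). In specimen 5533 the log2 excess over the 21 deeper tumours was 2.35 for MT-ND6 and 0.24 for MT-ND5. Since the strand of counting is not given, part of the MT-ND6 value could be heavy-strand RNA, and this ratio may not compare the 2 strands.

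**Figure D5:**
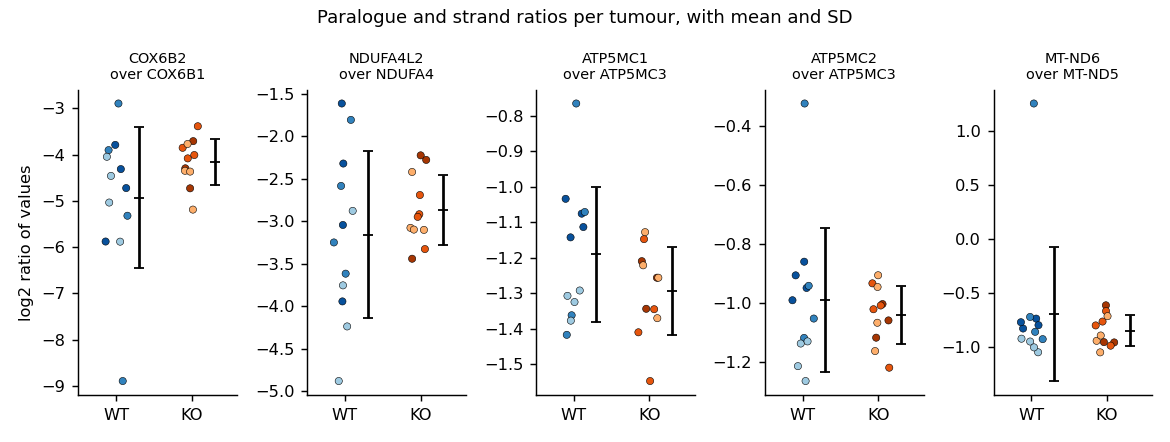
Log2 ratio of each gene pair per tumour in WT and KO tumours (points, coloured by line, blue for WT and orange for KO lines), with mean and SD beside them. The groups overlap in all 5 pairs, and the extreme WT points of COX6B2 over COX6B1 and of MT-ND6 over MT-ND5 are specimen 5533.

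Genes that build, feed or regulate the chain were described from 7 lists, and 0 of their members were called in the KO against WT test, in which 0.00623% of all genes were called. Of 53 assembly factors tested, 44 had a log2 difference below 0 (45.8% of all genes), with a median of -0.19. Without the 2 shallow libraries 35 did (50% of all genes), with a median of -0.03. Of 78 mitochondrial ribosomal protein genes, which translate the 13 mitochondrial messages, 72 were below 0 with a median of -0.21, and 56 with a median of -0.06 without the 2 libraries. Of 15 genes of the mobile carriers, cytochrome c and ubiquinone synthesis, 13 were below 0 with a median of -0.16, and 13 with a median of -0.10 without them. In this list, cytochrome c (CYCS) had 2324 ± 1042 (SD, n = 12) in WT and 1774 ± 267 (n = 11) in KO tumours, a difference of -0.31 ± 0.15 (limma adjusted p = 0.399) and of -0.14 without the 2 libraries. CYC1, the cytochrome c1 of complex III that the name rule does not take, had 2945 ± 1123 and 2346 ± 277, a difference of -0.27 ± 0.13 (limma adjusted p = 0.409) and of -0.10 without them. The other lists stood near 0 in all tumours: the median was 0.02 for 8 biogenesis regulators, -0.03 for 16 genes of mitochondrial DNA maintenance and transcription, -0.03 for 21 of mitochondrial RNA processing and -0.02 for 20 of the citric acid cycle. Without the 2 libraries these medians were -0.003, -0.03, -0.02 and -0.04. The medians of the assembly factors (-0.03) and mitochondrial ribosomal protein genes (-0.06) in that fit lay close to them. The promoter factors themselves differed little, by 0.04 ± 0.07 for NRF1, 0.04 ± 0.10 for GABPA and 0.06 ± 0.06 for YY1. TFAM, which packages and transcribes mitochondrial DNA, differed by -0.09 ± 0.13. PPARGC1A, a coactivator of mitochondrial biogenesis in oxidative tissues, had a mean of 3.50 and was not tested.

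Other cell types were followed by marker lists, since muscle in particular is rich in mitochondria. Of 20 skeletal muscle markers tested, 0 were called between KO and WT (0.00623% of all genes). A log2 difference below 0 was found for 9 of them (45.8% of all genes), with a median of 0.05. Without the 2 shallow libraries it was found for 2 (50% of all genes), with a median of 0.70. The summed level of the 20 markers was 81.1 to 20730 in WT and 283 to 19112 in KO tumours. It was 8652 in specimen 5532 and 10532 in specimen 5533. Over the 21 deeper tumours the log2 of this sum had r = 0.093 with the nuclear and -0.272 with the mitochondrial score, and the tumours with a high mitochondrial share had sums of 8247, 327, 283 and 475 (specimens 5528, 5529, 5542 and 5543). Of 10 fibroblast and matrix markers, 8 were tested, and the sum of the list was 2430 to 16916 in WT and 3916 to 28409 in KO tumours. Of the 8, 1 had a log2 difference below 0, with a median of 0.44, and 1 with a median of 0.08 without the 2 libraries. Of 7 myeloid markers 4 were tested (sums of 476 to 658 and 417 to 643), and of 7 endothelial markers 1 was. The endothelial sum was 95.6 to 238 in WT (median 192.5) and 80.2 to 222 in KO tumours (median 107). Its tested marker, VWF, with means of 142 in WT and 87.3 in KO tumours, makes up most of this sum. VWF differed by -0.77 ± 0.25 (SE, limma adjusted p = 0.245), and by -0.67 without the 2 libraries (adjusted p = 0.422), the same sign as most members. The untested endothelial markers had means below 10 and went in both directions. KDR (8.06 in WT, 9.95 in KO tumours), CDH5 (4.11 and 6.21) and CLDN5 (7.37 and 11.2) were higher in KO tumours. TEK (9.17 and 8.25), EMCN (5.85 and 0.39) and PECAM1 (0.92 and 0.63) were lower. None of the 5 adipocyte and 4 erythroid markers reached a mean of 10, with sums of at most 64.0 and 101 in any tumour. Of the 12 keratinocyte markers 0 were called (0.00623% of all genes). A log2 difference below 0 was found for 3 (45.8% of all genes), with a median of 0.28, and of 0.19 without the 2 libraries. At an unadjusted limma p of 0.05, 4 differed (12.5% of all genes). KRT1 (-1.17 ± 0.44, SE) and KRT10 (-0.92 ± 0.39) were lower in KO tumours, and DSP (0.59 ± 0.25) and DSG3 (0.38 ± 0.15) higher. Reads from mouse cells cannot be told apart from human ones in this table. The part of other cell types, or of the keratinocyte marker differences, in the members' values was not tested.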

How the data were processed

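The deposited values are a signal, scaled read abundance per gene, 1 for each tumour. The aligner STAR, DESeq2 and build hg38 are named per the submitters' processing notes, with no role, and versions, strand of counting and handling of mouse reads are not given in the sources used here. Per the labels' protocols, libraries were made from 500 ng of RNA. The smallest value that repeats often was taken as 1 read. Of the values up to 20 reads, 70.7% to 83.9% were whole multiples of it within 0.02, so no count test was run.

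Genes with a mean of at least 10 were tested as log2(value + 1), a scale that understates changes of low genes, with limma 3.58.1 in R 4.3.3, a trended prior, line as a random block (consensus correlation 0.0077) and Benjamini-Hochberg adjustment over 16063 genes. NDUFA4 and NDUFA4L2 were placed in complex IV. Transcript lengths and shared windows came from GENCODE, promoters from RefSeq. The rule for named genes takes all mitochondrial members, in each complex the nuclear members with the highest mean and the most positive and negative statistic, and the paralogue pairs. The members and lists were chosen with earlier results of these data known. On simulated data for KO against WT with 15866 genes, 76 of 100 2-fold changes and 95 of 100 4-fold changes were recovered, and 11 of 15669 unchanged genes were called. Among WT lines with 15847 genes it recovered 81 of 100 4-fold changes. The simulated tumours varied independently around each gene's mean, with no effect of line and no shallow library. Changes below 2-fold, as most members had, were not simulated, so the recovery of such changes in these data is not known.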

Additional observations from a re-analysis of the deposited data

Results flagged for a closer look

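Within each line of 4 tumours, the highest or lowest tumour was compared with the spread of the others by Dixon's criterion, in 210 groups of values. In 17 of them 1 tumour stood apart, and chance alone gives about 1 in 20. The groups are not independent, since the genes vary together and the scores are built from them. The count therefore cannot show an excess over chance. Specimen 5533 of WT line 6C9, the shallowest library, was the high tumour in 14 of the 17. For the mitochondrial genes its values were 108186 for MT-ATP6, 118675 for MT-CO2, 125426 for MT-CO3, 57067 for MT-CYB, 39840 for MT-ND1, 34784 for MT-ND2, 23340 for MT-ND3 and 35837 for MT-ND6. For nuclear members they were 3599 for ATP5MC2, 12049 for COX4I1, 4823 for COX6B1, 393 for NDUFA4L2, 13291 for UQCRB and 3837 for UQCRC1. The other 3 lay elsewhere. The nuclear complex IV score of specimen 5534 was 9.607 in WT line 6C10, where the other tumours had 9.422 to 9.452. ATP5IF1 was 2339 in specimen 5548 of KO line 1G10, against 1738 to 1812, and ATP5MF-PTCD1 was 22.4 in specimen 5543 of KO line 2B8, against 35.9 to 38.5.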

How the results depend on the processing

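The nuclear median difference between KO and WT was below 0 under every alternative run. With single tumours left out it ran from -0.35 to -0.12 and with single lines left out from -0.37 to -0.13, and the mitochondrial median from -0.44 to -0.18 and from -0.59 to -0.14. The mitochondrial median was above 0, at 0.02, only with library quality weights. The number of genes called between KO and WT was 0 to 2 with single tumours left out. It was 0 without specimen 5532, 2 without specimen 5533, 0 without both, 0 without KO specimen 5549, 0 without each of the lines 5B2, 6C10, 2B8 and 1G10, and 0 with libraries rescaled to the same total without mitochondrial genes, and 0 members were called in any of these fits. Library quality weights gave 738 called genes (0 members), and in the line comparisons 1919 among WT lines, 6459 among KO lines, 7906 for 2F7 (39 nuclear and 13 mitochondrial members), 1045 for 2B8 (1 nuclear member) and 326 for 1G10. Those line weights rest on few tumours. With no filter on low values 2F7 and 2B8 called 1 gene each, and without specimen 5533 1G10 called 1. With the rescaled totals the r between the nuclear and mitochondrial scores was 0.459 over all 23 tumours, where rho was 0.075. It was -0.133 with the deposited scaling and without specimens 5532 and 5533. The difference in the ratio of ATP5MC2 to ATP5MC3 changed sign without these 2 specimens, to 0.011, and that of MT-ND6 to MT-ND5 to 0.021 (permutation p = 0.833 and 0.714). No paired analysis was possible because the specimen numbers are not shared between genotypes. Depth limits the values of specimen 5533, where 1 read is worth 9.14 units, against 0.61 to 1.06 in the 21 deeper libraries.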
